A study of Mus musculus with 12 samples.

Results

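The voltage-gated sodium and calcium channel genes comprise the pore-forming and auxiliary subunits that carry or shape sodium and calcium currents across the neuronal membrane. Members were chosen by symbol from the deposited gene table (Scn followed by a number and a or b, and the Cacna, Cacnb and Cacng families, without the AMPA receptor regulators Cacng2, Cacng3 and Cacng8) and had to reach a mean of at least 10 expected counts over the 12 libraries. Of 36 matching symbols, 31 qualified, out of 22236 genes in the table. All 31 also passed the filter on low counts and were among the 15853 genes tested. The members just inside the minimum were Cacna1s (mean 23.7 expected counts) and Cacng6 (24.8), and the highest of the 5 left out was Cacna1f (6.33). The others left out were Cacng1, Scn4a, Scn10a and Scn11a, which are best known from muscle and sensory neurons. The brain sodium channel Scn2a is listed under its older symbol Scn2a1 and so is no member.

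Voltage-gated channels open when the membrane depolarises: sodium channels start and propagate the action potential, and calcium channels couple it to transmitter release, dendritic signalling and gene transcription. Each pore is a single large protein, and smaller β, α2δ and γ subunits set how much of it reaches the membrane and how it gates. In the hippocampus the Nav1.6 pore (Scn8a) is concentrated at the axon initial segment, Cav2.1 and Cav2.2 (Cacna1a, Cacna1b) drive release at synapses, and the L-type pores (Cacna1c, Cacna1d) lie on cell bodies and dendrites.

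Hippocampal mRNA was sequenced from male mice of 2 inbred strains, C57BL/6J (B6) and DBA/2J (D2), aged 3 to 5 months when virus was injected into both hippocampi. Mice given AAV9-shRNA-Hp1bp3, a hairpin RNA against the chromatin protein Hp1bp3, are called KD, and mice given AAV-scrmb-shRNA, a scrambled hairpin, are called Ctrl. Tissue was taken at least 6 weeks later, so all 4 groups (B6 Ctrl, B6 KD, D2 Ctrl and D2 KD, 3 libraries each) had been injected and carried a viral vector. Transduced and untransduced cells of the hippocampus were not separated. The comparisons ask whether loss of Hp1bp3 alters channel transcripts, whether it does so alike in both strains, and how the strains differ.

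Between 18.2 M and 39.4 M expected counts were summed per library, and levels are given as CPM, a count scaled to the library total and corrected for library composition. Hp1bp3 itself was at 308, 294 and 310 CPM in B6 Ctrl and at 185, 182 and 259 CPM in B6 KD, while D2 Ctrl had 226, 215 and 234 CPM and D2 KD 177, 163 and 230 CPM. The library labelled D2 KD 3 therefore lay inside the range of the D2 Ctrl libraries for the targeted gene, and the knock-down results of D2 are given with and without it where it moves them. The log2 fold change of Hp1bp3 was -0.54 ± 0.15 in B6 (edgeR adjusted p = 0.0760) and -0.25 ± 0.15 in D2 (adjusted p = 1), and without the library labelled D2 KD 3 these were -0.54 (adjusted p = 0.0469) and -0.41 (adjusted p = 0.554). Neuronal markers were abundant throughout, with a summed level of 5 pan-neuronal genes between 4000 and 5280 CPM. The choroid plexus marker Ttr, in contrast, ran from 26.9 to 4570 CPM, with high and low libraries in every group.

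Transcript levels can be compared between members only per length, so CPM was divided by the length in kb of the longest coding transcript. On this scale the β subunits Scn2b, Scn3b and Cacnb3 stood above all pores in B6 Ctrl, while the β subunit Scn4b was at 6.49 CPM per kb. In B6 Ctrl, Scn2b, a β subunit that assembles with sodium channels, was at 77.4 ± 1.18 CPM per kb (SD, n = 3). Scn3b (76.1 ± 8.15 CPM per kb) and Cacnb3 (73.8 ± 8.78) did not differ from it or from each other beyond their spread.

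Next came the γ subunit Cacng7, at 52.0 ± 2.92 CPM per kb in B6 Ctrl, and Scn8a, the most abundant member pore, at 44.4 ± 9.34. Among calcium pores Cacna1a (27.5 ± 3.12 CPM per kb) and the T-type pore Cacna1h (23.9 ± 0.344) led. Scn1a, the sodium pore of fast-spiking interneurons, was at 12.0 ± 2.75 CPM per kb, and Scn3a, best known from the developing brain, at 5.81 ± 1.08. Low in the range were Scn9a (0.383 ± 0.0305 CPM per kb), a pore of sensory neurons, and the α2δ subunit Cacna2d4 (0.264 CPM per kb), and lowest was Cacna1s (0.0984 ± 0.0172), the pore of skeletal muscle.

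**Figure D1:**
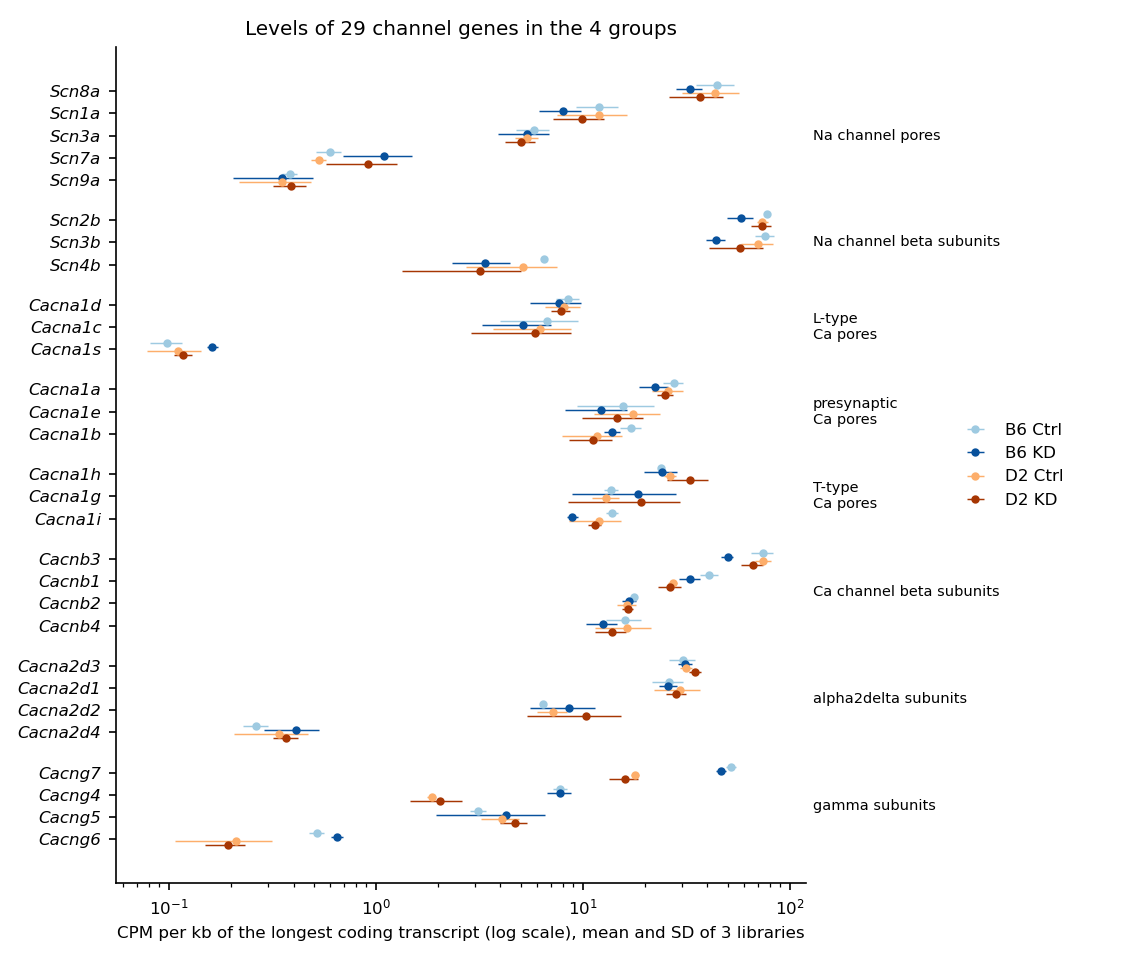
Level of 29 of the channel genes in CPM per kb of the longest coding transcript (x axis, log scale), ordered within subfamilies on the y axis. Points are means of 3 libraries and whiskers are SDs in the 4 groups. The β subunits Scn2b, Scn3b and Cacnb3 lie near the top and Cacna1s is lowest, and Cacng4, Cacng6 and Cacng7 are the members whose B6 and D2 points stand far apart.

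The sequences upstream of the annotated starts of Cacnb3 and Cacng7 are shown because Cacnb3 was the only member called with knock-down in B6 and Cacng7 had the smallest p of the strain comparison. Each is the 250 bases before a RefSeq start in GRCm38.p6, 5′ to 3′ on the plus strand. RefSeq windows were matched by symbol for 22 of the 31 members. The sequence is that of the C57BL/6J reference, and D2 alleles were not analysed here. Capitals mark the GC box (GGGCGG), the CCAAT box (CCAAT) and the TATA box (TATAAA), each searched on both strands.
Cacnb3 upstream start, chr15:98632078-98632327:
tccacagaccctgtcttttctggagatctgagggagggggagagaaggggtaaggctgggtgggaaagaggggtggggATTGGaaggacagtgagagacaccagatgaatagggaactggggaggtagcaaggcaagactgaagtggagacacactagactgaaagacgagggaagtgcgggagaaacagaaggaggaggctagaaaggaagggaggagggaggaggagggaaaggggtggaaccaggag
Cacnb3 downstream start, chr15:98634517-98634766:
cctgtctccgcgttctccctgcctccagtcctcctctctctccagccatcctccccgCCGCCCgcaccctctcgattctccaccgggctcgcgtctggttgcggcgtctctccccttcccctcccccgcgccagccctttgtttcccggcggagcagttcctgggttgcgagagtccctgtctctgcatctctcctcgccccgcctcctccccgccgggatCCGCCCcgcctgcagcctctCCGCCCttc
Cacng7, chr7:3332575-3332824:
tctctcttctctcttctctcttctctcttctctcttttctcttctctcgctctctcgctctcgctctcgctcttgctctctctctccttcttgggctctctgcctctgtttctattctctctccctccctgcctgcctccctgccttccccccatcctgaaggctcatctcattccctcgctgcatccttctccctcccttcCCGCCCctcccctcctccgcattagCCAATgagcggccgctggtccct

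The starts of Cacnb3 differed in base composition. The upstream window had 56.0% G and C and held 1 CCAAT box on the other strand, and the downstream window had 70.4% and held 3 GC boxes. The Cacng7 window had 58.0% G and C, a run of cytosine and thymine repeats, 1 GC box and 1 CCAAT box. Over all 32851 RefSeq windows of this length the median was 52.4% G and C, 32.7% held a GC box, 33.8% a CCAAT box and 12.4% a TATA box, of which the printed windows held none. The expected counts do not tell which start a transcript used.

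The strain comparison gave the largest differences among the channel genes. In Ctrl mice 4 of 31 members were called at an edgeR adjusted p under 0.05, all lower in D2 (8.75% of all genes tested were called lower): the γ subunits Cacng4, Cacng6 and Cacng7 and the calcium channel β subunit Cacnb1. This is 12.9% of the members beside 14.0% of all genes tested, so the share called was near the background. The remaining 27 members had adjusted p-values above the threshold. Averaged over both treatments the same 4 members were called, again lower in D2, beside 21.3% of all genes called and 12.7% called lower.

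Cacng4, a transmembrane γ subunit that also regulates AMPA receptors, was at 29.5, 25.2 and 27.1 CPM in B6 Ctrl and at 6.41, 6.91 and 6.22 CPM in D2 Ctrl. B6 KD libraries had 26.7, 23.7 and 30.7 CPM and D2 KD libraries 9.47, 5.97 and 5.98 CPM. Every B6 library was above every D2 library. For D2 against B6 the log2 fold change was -2.07 ± 0.18 in Ctrl (edgeR adjusted p = 1.31e-05), so D2 held 23.9% of the B6 level, and -2.0 ± 0.13 over both treatments (adjusted p = 4.87e-07). The gene lies at chr11:107732357-107794557 on the minus strand (GENCODE M21, GRCm38).

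Cacng7, a further AMPA receptor regulator of the γ family, was at 122, 113 and 110 CPM in B6 Ctrl and at 37.7, 40.9 and 40.4 CPM in D2 Ctrl. With knock-down it was at 104, 107 and 96.6 CPM in B6 and at 29.1, 40 and 36.1 CPM in D2. Again no library of one strain reached the range of the other. D2 against B6 gave a log2 fold change of -1.54 ± 0.11 in Ctrl (edgeR adjusted p = 2.84e-06), or 34.5% of the B6 level, and -1.54 ± 0.08 over both treatments (adjusted p = 7.22e-08). Cacng7 and Cacng6 are neighbours on chromosome 7, at chr7:3332955-3368221 and chr7:3424195-3435667, both on the plus strand.

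Cacng6, a further member of the γ family, was near the lower limit of detection. It was at 1.08, 1.07 and 0.925 CPM in B6 Ctrl and at 1.19, 1.32 and 1.36 CPM in B6 KD, while D2 Ctrl had 0.650, 0.340 and 0.259 CPM and D2 KD 0.314, 0.473 and 0.348 CPM. The D2 libraries were all below the B6 libraries, at a level of few counts. Its log2 fold change in Ctrl was -1.26 ± 0.34 (edgeR adjusted p = 0.0279), and over both treatments -1.50 ± 0.24 (adjusted p = 0.000656). The call in Ctrl was lost without B6 Ctrl 1 (adjusted p = 0.0917), B6 Ctrl 2 (0.0725), B6 Ctrl 3 (0.0590), D2 Ctrl 2 (0.100) or D2 Ctrl 3 (0.101). It was also lost with the library total as covariate (0.0761) or only the compared groups in the fit (0.0777). The call over both treatments held without each of these libraries and with the library total as covariate. A fit of only the compared groups was not made for that comparison.

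Cacnb1, a cytoplasmic β subunit that carries calcium pores to the membrane, was at 152, 124 and 139 CPM in B6 Ctrl and 103, 107 and 127 CPM in B6 KD, while D2 Ctrl had 90.4, 88.9 and 97.8 CPM and D2 KD 102, 79.3 and 88.6 CPM. All D2 libraries were below all B6 libraries, by a smaller distance than for the γ subunits. Cacnb1 had a log2 fold change of -0.58 ± 0.12 in Ctrl (edgeR adjusted p = 0.00588) and -0.45 ± 0.08 over both treatments (adjusted p = 0.00204). An exon of Cacnb1 overlaps one of Gm11629 on the opposite strand, and the strand setting of the counting was not given in the sources used here, so reads of the pair cannot be told apart.

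**Figure D2:**
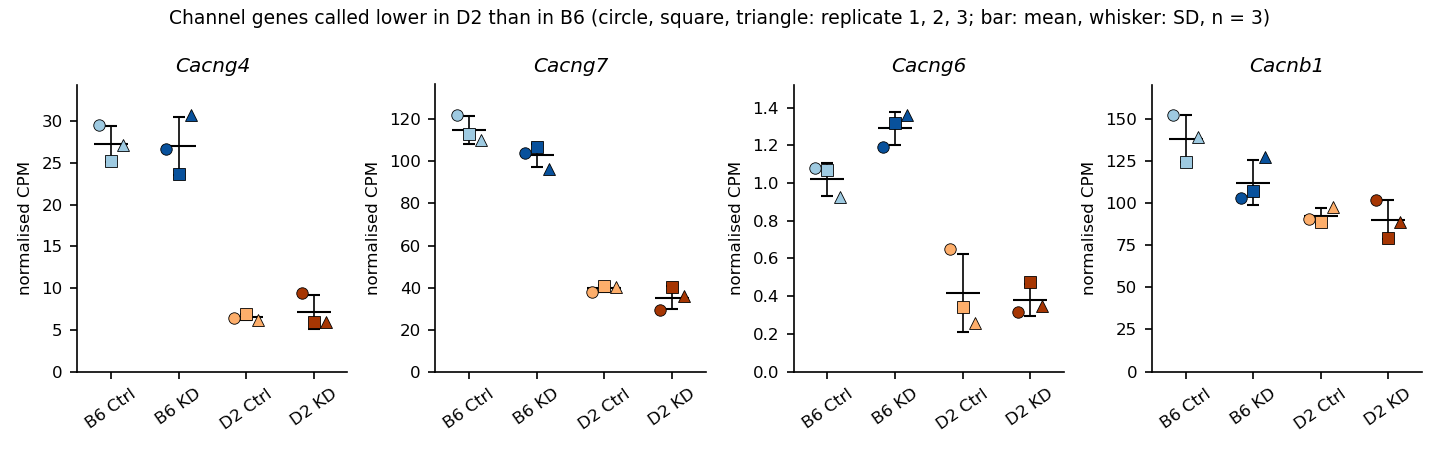
Normalised CPM (y axis, from 0) of the 4 channel genes called lower in D2, by group on the x axis. Circles, squares and triangles are libraries 1, 2 and 3, bars are means and whiskers SDs (n = 3). The 6 D2 libraries lie below the 6 B6 libraries in all 4 panels.

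The fourth γ member, Cacng5, did not share this pattern. It was at 12.6, 10.5 and 11.6 CPM in B6 Ctrl and 16.6, 17.0 and 11.5 CPM in D2 Ctrl, and its groups overlapped (log2 fold change 0.37 ± 0.31, edgeR adjusted p = 0.553). Cacng4 and Cacng5 are neighbours on chromosome 11. Of the related AMPA receptor regulators outside the member rule, Cacng2 (log2 fold change -1.06 ± 0.20, adjusted p = 0.00392) and Cacng3 (-0.84 ± 0.20, adjusted p = 0.0157) were also called lower in D2 Ctrl, and Cacng8 was not (-0.27 ± 0.18, adjusted p = 0.433).

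Reads of each mouse had been aligned to the genome of its own strain, so the strain comparison also compares 2 references. The expected counts of some members differed in form between the strains, and the cause of this was not tested. Cacng4 had fractional values, which RSEM gives when reads are shared between genes, in 5 of 6 B6 libraries and in 0 of 6 D2 libraries. Cacna1a, Cacnb2 and Cacnb4 had fractions in 6 of 6 B6 and 0 of 6 D2 libraries, and none of these 3 was called between strains. Cacng7, Cacng6 and Cacnb1 had whole values in all 12 libraries. Genotype and reference cannot be told apart here.

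None of the pore-forming members was called between strains. The pore with the smallest p in Ctrl was Cacna1b, the N-type channel of synaptic terminals, at 160, 152 and 189 CPM in B6 Ctrl and 130, 140 and 71.7 CPM in D2 Ctrl. All D2 Ctrl libraries were below the B6 Ctrl libraries, but the log2 fold change of -0.55 ± 0.23 gave an edgeR adjusted p of 0.176. Over both treatments Cacna1b was not called with all libraries (adjusted p = 0.0928) and was the fifth member called without the library labelled D2 KD 3, beside 19.5% of all genes. In all, 6 of 31 members had Ctrl libraries that did not overlap between strains, beside 31.7% of all genes, and 4 of 31 over all 12 libraries, beside 14.5%.

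Higher estimates in D2 were small. Over both treatments the smallest p-values in this direction belonged to Cacna1h (log2 fold change 0.29 ± 0.11, edgeR adjusted p = 0.0995) and Cacnb3 (0.21 ± 0.08, adjusted p = 0.110). Cacna1h was called without B6 KD 3 (adjusted p = 0.0247), and Cacnb3 was called without B6 Ctrl 1 (0.0492) or D2 KD 2 (0.0468). Between Ctrl mice alone the estimates were 0.14 ± 0.16 for Cacna1h (edgeR adjusted p = 0.699) and 0.01 ± 0.12 for Cacnb3 (0.97). The average of Cacnb3 therefore came from the KD libraries. In Ctrl the α2δ subunits Cacna2d4 (0.37 ± 0.31, adjusted p = 0.560) and Cacna2d1 (0.17 ± 0.18, adjusted p = 0.665) followed Cacng5. Cacna2d1, a binding site of gabapentin, was at 190, 163 and 229 CPM in B6 Ctrl and at 233, 264 and 159 CPM in D2 Ctrl, and at 206, 201 and 170 CPM in B6 KD and 199, 238 and 196 CPM in D2 KD, with the strains overlapping.

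In B6 mice, 1 of the 31 members was called with knock-down of Hp1bp3. This was Cacnb3, which fell, and it is 3.23% of the members beside 2.64% of all genes tested, or 0.877% in the same direction. The estimates leaned downwards, with 22 of 31 members lower (71.0%, beside 49.4% of all genes) and a median log2 fold change of -0.15, beside 0.00 over all genes. At an unadjusted p under 0.05 there were 9 members, 7 lower and 2 higher, beside 20.6% of all genes, 8.72% lower and 11.9% higher. Libraries of KD and Ctrl did not overlap for 11 members (27.8% of all genes), 8 lower (14.0%) and 3 higher (13.9%). These counts describe the members and were not tested as a list.

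Cacnb3, the main β subunit of N-type calcium channels in brain, was at 229, 183 and 194 CPM in B6 Ctrl and at 138, 127 and 145 CPM in B6 KD. All KD libraries were below all Ctrl libraries. The log2 fold change was -0.56 ± 0.12 (edgeR adjusted p = 0.0415), which leaves 67.7% of the Ctrl level. In D2 the gene was at 199, 189 and 223 CPM in Ctrl and at 185, 157 and 200 CPM in KD, with overlapping groups and a log2 fold change of -0.17 ± 0.12 (adjusted p = 1). The difference between strains in the response was 0.39 ± 0.17 (interaction, adjusted p = 0.824).

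The size of the Cacnb3 difference was stable, between -0.66 and -0.49 when each of the 12 libraries was left out in turn, but the call was not. It was lost without B6 Ctrl 1 (edgeR adjusted p = 0.188), B6 Ctrl 3 (0.125), B6 KD 1 (0.0826), B6 KD 2 (0.122), D2 Ctrl 1 (0.0599), D2 Ctrl 2 (0.0550) or D2 KD 1 (0.0565), fits in which between 0 and 124 of all genes were called. It was also lost with the library total (adjusted p = 0.0639) or the choroid plexus score (0.0597) as covariate, and with only the B6 groups in the fit (0.0579). DESeq2 (adjusted p = 0.000305) and limma-voom (0.0438) kept the call. Among 10 alternative settings 7 kept it and 3 lost it. Omitting single libraries kept it 5 times and lost it 7 times.

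The sodium channel β subunits Scn2b, Scn3b and Scn4b shared the direction. Each had a lower estimate in B6 KD at an unadjusted p under 0.05, and none of the 3 passed the adjusted threshold by edgeR with all libraries. Scn3b, a β subunit with high hippocampal expression, was at 347, 280 and 321 CPM in B6 Ctrl and at 202, 181 and 163 CPM in B6 KD. The groups were well separated, and the log2 fold change was -0.79 ± 0.20 (edgeR adjusted p = 0.0567). It was called without D2 Ctrl 3 (adjusted p = 0.0473) or the library labelled D2 KD 3 (0.0214), and by DESeq2 (0.00311).

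Scn2b, which is linked to the pores by a disulfide bond, was at 365, 354 and 362 CPM in B6 Ctrl and at 305, 276 and 228 CPM in B6 KD, again with no overlap (log2 fold change -0.42 ± 0.11, edgeR adjusted p = 0.0722). DESeq2 called it (adjusted p = 0.00964), and limma-voom did not (0.0703). Scn4b, a β subunit tied to resurgent sodium current, was at 33.3, 31.9 and 31.8 CPM in Ctrl and at 11.8, 22.3 and 16.4 CPM in KD (-0.94 ± 0.42, adjusted p = 0.232). Scn2b and Scn4b are neighbours on chromosome 9, at chr9:45117782-45130070 and chr9:45138395-45154152.

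**Figure D3:**
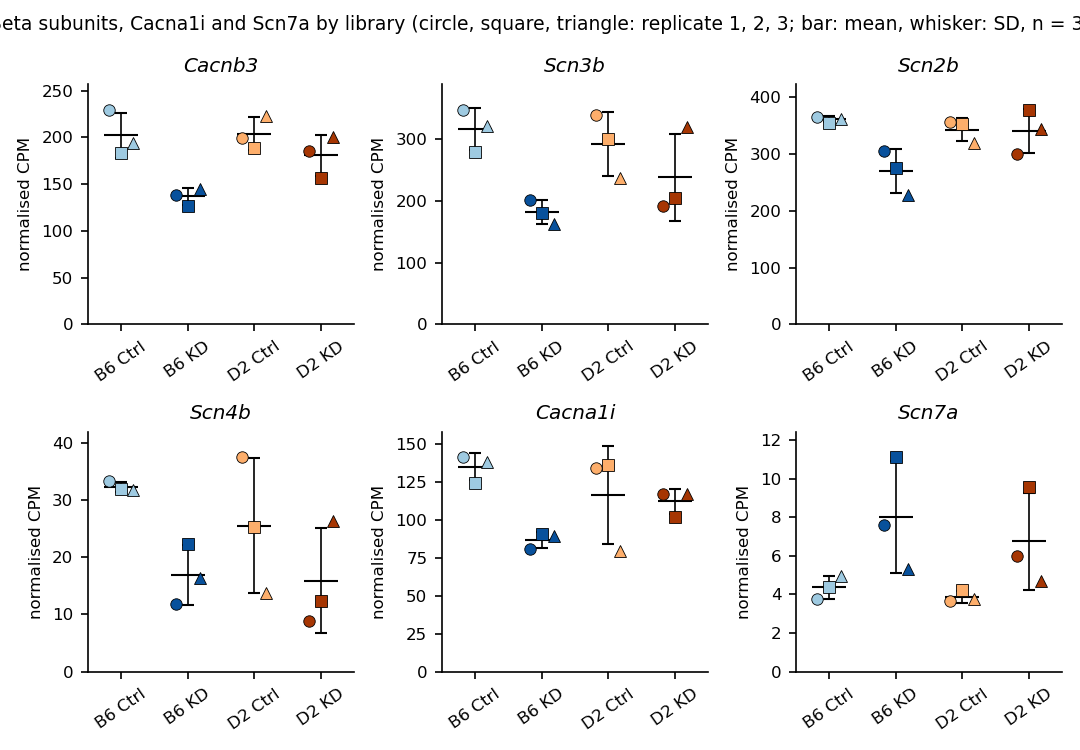
Normalised CPM (y axis, from 0) of Cacnb3, Scn3b, Scn2b, Scn4b, Cacna1i and Scn7a by group on the x axis. Circles, squares and triangles are libraries 1, 2 and 3, bars are means and whiskers SDs (n = 3). In B6 the KD libraries lie above the Ctrl libraries for Scn7a and below them for the other genes, and in D2 the groups overlap for every gene but Scn7a.

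The remaining calcium channel β subunits also had lower estimates in B6 KD, with log2 fold changes of -0.30 ± 0.12 for Cacnb1 (edgeR adjusted p = 0.179), -0.36 ± 0.23 for Cacnb4 (0.404) and -0.09 ± 0.09 for Cacnb2 (0.636). Cacnb2 was the steadiest member of all, between 58.1 and 72.2 CPM in the 12 libraries. By contrast, 3 of the 4 α2δ subunits had higher estimates, led by Cacna2d4, which was at 1.29, 1.68 and 1.62 CPM in B6 Ctrl and 2.67, 1.58 and 2.87 CPM in B6 KD (0.64 ± 0.31, adjusted p = 0.263). In D2 this gene was at 1.58, 1.47 and 2.85 CPM in Ctrl and 2.45, 2.10 and 1.87 CPM in KD, and in both strains its groups overlapped.

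Among pores, Cacna1i, a T-type channel of thalamic and other neurons, came closest to a call. It was at 141, 124 and 138 CPM in B6 Ctrl and at 80.9, 90.3 and 89.5 CPM in B6 KD, with no overlap. Its log2 fold change of -0.63 ± 0.17 had an edgeR adjusted p of 0.0719. It was called without D2 Ctrl 3 (adjusted p = 0.0256) and by DESeq2 (0.00964). In D2 it was at 134, 136 and 79.1 CPM in Ctrl and 117, 102 and 117 CPM in KD. D2 Ctrl 3 stood apart from its group for this gene, and the interaction was 0.58 ± 0.24 (adjusted p = 0.824).

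Scn7a differed from the other sodium pores. It encodes Nax, a sodium-sensing relative of the voltage-gated pores that is found in glia and in brain regions that monitor body fluid. It was at 3.78, 4.40 and 4.97 CPM in B6 Ctrl and 7.58, 11.1 and 5.34 CPM in B6 KD, while D2 Ctrl had 3.65, 4.25 and 3.78 CPM and D2 KD 6.01, 9.55 and 4.68 CPM. KD libraries were above Ctrl libraries in both strains, a pattern that 0.618% of all genes showed in this direction. Its estimate was 0.87 ± 0.30 on the log2 scale in B6 (edgeR adjusted p = 0.130), 0.80 ± 0.30 in D2 (adjusted p = 1) and 0.83 ± 0.21 averaged over strains (adjusted p = 0.0798). Without B6 KD 3 or the library labelled D2 KD 3 the average was 0.92 (adjusted p = 0.0429) or 0.93 (adjusted p = 0.0347), and the lowest average with 1 library left out was 0.66. Within strains the estimate went from 0.54 (without B6 KD 2) to 1.06 in B6, and from 0.46 (without D2 KD 2) to 1.00 (without the library labelled D2 KD 3) in D2.

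The muscle pore Cacna1s was the third member with all B6 KD libraries above B6 Ctrl, beside Scn7a and Cacng6. Its values were 0.512, 0.726 and 0.607 CPM in Ctrl and 0.993, 0.965 and 1.08 CPM in KD, a level of few counts (log2 fold change 0.73 ± 0.27, edgeR adjusted p = 0.156). In D2 it was at 0.588, 0.566 and 0.926 CPM in Ctrl and 0.804, 0.658 and 0.727 CPM in KD, with overlapping groups.

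Other measures moved between the B6 groups as well. The 5 interferon response genes summed to between 17.6 and 24.9 CPM in Ctrl and between 175 and 577 CPM in KD, and all 5 were called higher. The summed level of 5 pan-neuronal genes was between 4610 and 4980 CPM in Ctrl and between 4000 and 4380 CPM in KD, and that of 5 CA pyramidal genes between 324 and 403 and between 238 and 291 CPM, with 0 of 5 called in either list. In these lists Stmn2 (log2 fold change 0.07), Bok (0.30) and Iyd (0.23) had higher estimates and the other genes lower ones. Other neuronal lists overlapped between Ctrl and KD, namely excitatory (6070 to 6990 and 4670 to 6270 CPM), inhibitory (727 to 823 and 571 to 888 CPM) and dentate granule genes (336 to 413 and 272 to 383 CPM). Of 5 astrocyte genes 1 was called higher. The 5 microglia genes summed to between 217 and 255 CPM in Ctrl and between 269 and 405 CPM in KD, without overlap, with a median log2 fold change of 0.62 and 0 of 5 called. In whole tissue, fewer cells of a type and less RNA per cell cannot be told apart, and the part of these shifts in the channel results was not tested. In D2 the summed interferon response genes overlapped, with 23.2 to 84.6 CPM in Ctrl and 32.3 to 211 CPM in KD. Their mean log2 CPM was 3.34 in D2 Ctrl 3, above the 1.99 of the library labelled D2 KD 3.

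In D2 mice no member was called with knock-down, and neither was any gene tested (0.00%) by edgeR. At an unadjusted p under 0.05 there was 1 member (2.85% of all genes), Scn7a. DESeq2 and limma-voom also called 0 members. The median log2 fold change of the members was -0.05, with 19 of 31 lower, beside 48.7% of all genes. Libraries of KD and Ctrl did not overlap for 4 members (5.96% of all genes), 1 lower (3.03%) and 3 higher (2.93%). The higher members were Scn7a, Cacna1h and the α2δ subunit Cacna2d3.

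The lowest p-values of the D2 comparison in the downward direction belonged to Scn4b, Cacng7 and Scn3b. Scn4b was at 37.4, 25.2 and 13.8 CPM in D2 Ctrl and 8.91, 12.4 and 26.3 CPM in D2 KD (log2 fold change -0.68 ± 0.42, edgeR adjusted p = 1). Scn3b was at 340, 300 and 237 CPM in Ctrl and 192, 204 and 319 CPM in KD (-0.30 ± 0.20, adjusted p = 1). For both, the library labelled D2 KD 3 was the highest of its group. Without it the log2 fold changes were -1.26 for Scn4b (adjusted p = 0.522) and -0.56 for Scn3b (adjusted p = 0.467). Still 0 members were called, beside 0.00623% of all genes. Other libraries moved the estimates the opposite way, to -0.30 for Scn4b without D2 Ctrl 1 and to -0.17 for Scn3b without D2 KD 1. The log2 fold change of Cacng7 was -0.17 ± 0.11 with all libraries, -0.20 without the library labelled D2 KD 3 and -0.07 without D2 KD 1.

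Averaged over strains no member and no gene (0.00%) was called by edgeR, and 7 of 31 members had an unadjusted p under 0.05 (19.2% of all genes). The smallest edgeR adjusted p-values were those of Cacnb3 (log2 fold change -0.37 ± 0.08, adjusted p = 0.0621), Scn3b (-0.54 ± 0.14, 0.0798) and Scn7a (0.83 ± 0.21, 0.0798). DESeq2 called these 3, beside 1217 genes in all. DESeq2 was run without the filter on low counts, so this is 5.47% of the 22236 genes in the table. The edgeR shares are of the genes that passed the filter. Without the library labelled D2 KD 3, edgeR called 4 members, namely Cacnb3, Scn3b and Scn4b lower and Scn7a higher, beside 4.97% of all genes. Without B6 KD 3 it called 3, Cacnb3 and Scn7a among them (2.50% of all genes), and without D2 Ctrl 3 it called 1, Cacna1i (2.03%). With all libraries none of the 15853 genes was called, and in these fits the members gained calls together with other genes.

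The interaction of strain and treatment gave 0 called members and 0 called genes (0.00%) by edgeR, and DESeq2 and limma-voom also called 0 members. Unadjusted p-values under 0.05 were found for 3 members (5.91% of all genes), Scn2b (0.41 ± 0.16, edgeR adjusted p = 0.821), Cacna1i and Cacnb3, all with the lower KD estimate in B6. For Scn2b, D2 libraries had 357, 352 and 319 CPM in Ctrl and 300, 377 and 344 CPM in KD. In the other direction the estimates were -0.66 ± 0.38 for Cacna1s (adjusted p = 0.894), -0.53 ± 0.43 for Cacna2d4 (0.955) and -0.49 ± 0.47 for Cacng6 (0.967). A different response of the strains was therefore not shown for any member.

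**Figure D4:**
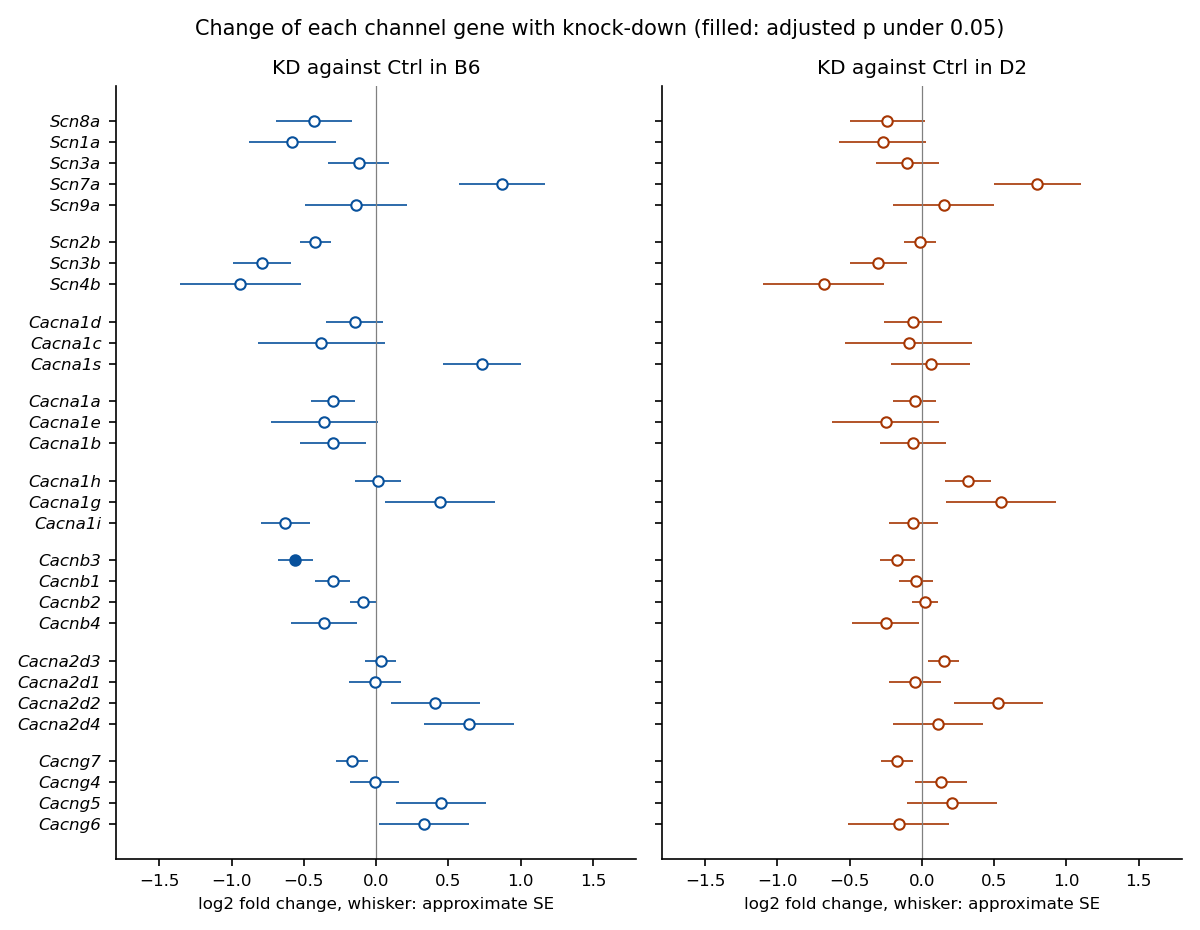
Log2 fold change of KD against Ctrl (x axis) for 29 of the channel genes, in B6 (left) and D2 (right), with approximate SEs as whiskers. The filled point, Cacnb3 in B6 at -0.56, is the only one with an adjusted p under 0.05. All 7 β subunits drawn lie below 0 in B6, and 6 of them do in D2.

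Several of the main pores varied widely between libraries of a group. Scn8a was at 435, 459 and 631 CPM in B6 Ctrl and 433, 369 and 326 CPM in B6 KD, while D2 Ctrl had 602, 560 and 323 CPM and D2 KD 364, 336 and 561 CPM. The lowest and the highest D2 Ctrl library thus spanned nearly the whole range of this gene. Scn1a followed with 81.7, 92.9 and 126 CPM in B6 Ctrl and 82.0, 67.5 and 51.4 CPM in B6 KD, while D2 Ctrl had 123, 120 and 58.0 CPM and D2 KD 65.7, 74.3 and 109 CPM. Its log2 fold change with knock-down in B6 was -0.58 ± 0.30 (edgeR adjusted p = 0.305).

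The same libraries were high and low for the calcium pores with long mRNAs. Cacna1c, the main L-type pore, was at 63.3, 71.9 and 130 CPM in B6 Ctrl and 92.1, 68.8 and 42.3 CPM in B6 KD, while D2 Ctrl had 99.6, 103 and 43.4 CPM and D2 KD 55, 53.6 and 122 CPM. Cacna1e, the R-type pore, was at 178, 183 and 344 CPM, 239, 194 and 117 CPM, 307, 319 and 155 CPM and 185, 172 and 301 CPM in the same order of groups. B6 Ctrl 3 was the highest library and B6 KD 3 the lowest for both.

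Cacna1a, the P/Q-type pore, moved less, with 201, 207 and 247 CPM in B6 Ctrl and 209, 157 and 164 CPM in B6 KD, while D2 Ctrl had 227, 224 and 165 CPM and D2 KD 185, 192 and 217 CPM. Cacna1b in the KD groups was at 149, 131 and 126 CPM in B6 and 102, 87.4 and 137 CPM in D2. Neither pore passed the adjusted threshold in any knock-down comparison.

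Cacna1d, the L-type pore that opens at lower voltages, was at 70.5, 66.5 and 84.3 CPM in B6 Ctrl and 81.7, 71.4 and 46.4 CPM in B6 KD, while D2 Ctrl had 78.2, 78.2 and 55.2 CPM and D2 KD 60.2, 68.7 and 74.6 CPM. Scn3a was at 52.5, 47.2 and 67.1 CPM, 62.8, 55.8 and 35.4 CPM, 55.6, 55 and 43.8 CPM and 39.1, 50.2 and 54.8 CPM in the same order of groups. B6 Ctrl 3 was the highest library and B6 KD 3 the lowest for both. Scn2a1, which is no member, was at 330, 304 and 406 CPM in B6 Ctrl and 328, 262 and 223 CPM in B6 KD (log2 fold change -0.36 ± 0.17, adjusted p = 0.257), and at 355, 361 and 311 CPM in D2 Ctrl and 266, 323 and 373 CPM in D2 KD.

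Transcript length moved with this order of libraries. Among genes that are no members, the median deviation of the longest decile (median length 8691 bases) from its mean over the 12 libraries, minus that of the shortest decile (1129 bases), was lowest in B6 KD 3 at -0.33 log2 units. It was highest in B6 Ctrl 3 at 0.32 log2 units. D2 Ctrl 3 stood at -0.27, D2 Ctrl 1 and D2 Ctrl 2 at 0.18 and 0.30, D2 KD 1 and D2 KD 2 at -0.17 and -0.16, and the library labelled D2 KD 3 at 0.18. Group means were 0.04 log2 units for B6 Ctrl, -0.05 for B6 KD, 0.07 for D2 Ctrl and -0.05 for D2 KD, with SDs between 0.20 and 0.30, so the groups did not differ beyond their spread.

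The channel genes are long, with a median of 7338 bases beside 3096 for all genes tested. The 16 members of at least 7 kb, which include every pore-forming member but Cacna1s, were lowest in D2 Ctrl 3 and B6 KD 3, with median deviations of -0.45 and -0.36 log2 units, and highest in D2 Ctrl 2 and B6 Ctrl 3, at 0.33 and 0.32. The 15 shorter members were at -0.13, 0.26, 0.08 and 0.14 log2 units in these libraries, in that order. With this length measure as a covariate, chosen after the data were seen, the fit in B6 called Cacnb3 (log2 fold change -0.58, edgeR adjusted p = 0.0308), Scn3b (-0.74, 0.0333) and Scn1a (-0.43, 0.0479). This fit called 5.05% of all genes, beside 2.64% without the covariate. The median log2 fold change of the members in B6 was -0.14 with the covariate, with 22 of 31 lower, and in D2 it was 0.04, with 10 of 31 lower in place of 19. In the strain comparison of Ctrl mice the covariate added Cacna1b (-0.63 ± 0.14, adjusted p = 0.00885) to the 4 called members. The share of all genes called in that fit is not given here.

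**Figure D5:**
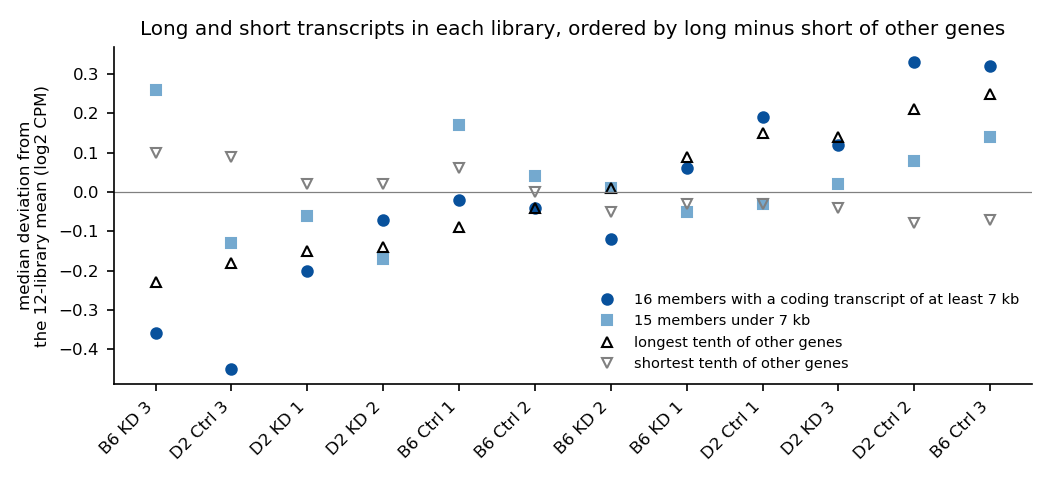
Median deviation from the 12-library mean in log2 CPM (y axis) for long and short channel genes and for the longest and shortest deciles of other genes, in each library (x axis, ordered by the difference between the last 2). The long channel genes run from -0.45 in D2 Ctrl 3 to 0.33 in D2 Ctrl 2 and follow the long genes outside the set.

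A small group of members followed another pattern. Cacna1g, a T-type pore of burst-firing neurons, was at 119, 105 and 121 CPM in B6 Ctrl and 116, 101 and 248 CPM in B6 KD, while D2 Ctrl had 94.4, 126 and 106 CPM and D2 KD 261, 111 and 106 CPM. B6 KD 3 and D2 KD 1 had more than the other 10 libraries, and the log2 fold changes with knock-down of 0.44 ± 0.38 in B6 and 0.55 ± 0.38 in D2 (edgeR adjusted p = 0.558 and 1) each rest on 1 library.

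Cacna2d2, the α2δ subunit of Purkinje cells and interneurons, was at 37.3, 38.2 and 36.7 CPM in B6 Ctrl and 34.2, 46.3 and 68.0 CPM in B6 KD, while D2 Ctrl had 36.7, 49.5 and 39 CPM and D2 KD 93.0, 46.8 and 40.3 CPM. It was highest in the same 2 libraries. In D2 the log2 fold change was 0.53 ± 0.31 (edgeR adjusted p = 1), 0.05 without D2 KD 1 and 0.74 without the library labelled D2 KD 3. Cacna1h was at 196, 194 and 200 CPM in B6 Ctrl and 168, 190 and 239 CPM in B6 KD, while D2 Ctrl had 231, 215 and 202 CPM and D2 KD 339, 235 and 235 CPM. Its log2 fold change in D2 went from 0.32 ± 0.16 (adjusted p = 1) to 0.11 without D2 KD 1 and 0.41 without the library labelled D2 KD 3.

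Cacng5 was at 11.1, 10.6 and 25.7 CPM in B6 KD and 18.7, 14.3 and 19.0 CPM in D2 KD, again with B6 KD 3 above all other libraries. Members given here by their range were Scn9a (1.79 to 4.92 CPM), Cacnb4 (84.7 to 175 CPM) and Cacna2d3 (98.7 to 139 CPM), and none was called in any comparison.

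A list of 43 channel partners that are no members, of which 42 were tested, gave a similar picture. With knock-down in B6, 1 of 42 was called, beside 2.64% of all genes, so the share was near the background. The partner called was Sptbn4, the spectrin that anchors sodium channels at the axon initial segment. It was at 324, 272 and 274 CPM in B6 Ctrl and 222, 213 and 199 CPM in B6 KD, with no overlap (log2 fold change -0.46 ± 0.09, edgeR adjusted p = 0.0369). In D2 it was at 302, 294 and 289 CPM in Ctrl and 247, 246 and 276 CPM in KD, also with no overlap. There its log2 fold change was -0.20 ± 0.09 (adjusted p = 1), and averaged over strains it was -0.33 ± 0.06 (edgeR adjusted p = 0.054).

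Between strains 9 of 42 partners were called in Ctrl and 9 over both treatments, beside 14.0% and 21.3% of all genes. Fgf11, an intracellular fibroblast growth factor homologous factor of the family that binds sodium channels, was at 48.6, 41 and 46.2 CPM in B6 Ctrl and 4.21, 5.21 and 5.59 CPM in D2 Ctrl (log2 fold change -3.18 ± 0.28, edgeR adjusted p = 1.63e-05). The release-site scaffolds went opposite ways, with Rims1 lower (-1.29 ± 0.39, adjusted p = 0.0496) and Rims2 higher (0.99 ± 0.22, adjusted p = 0.0120) in D2 Ctrl.

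Also lower in D2 Ctrl were Ank3, the ankyrin of the axon initial segment (log2 fold change -0.65 ± 0.18), Ppp3ca, a calcineurin catalytic subunit (-0.76 ± 0.15), Scnm1, a splicing factor known as a modifier of Scn8a (-0.63 ± 0.10), Stac3 (-1.54 ± 0.30) and the calcium-binding protein Cabp1 (-0.46 ± 0.14). Over both treatments Fgf12 (0.44 ± 0.11, edgeR adjusted p = 0.0109) was called and Cabp1 was not (-0.28 ± 0.10, adjusted p = 0.0729).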

How the data were processed

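Hippocampal mRNA of 12 mice was analysed, 3 libraries a group, with groups taken from the strain and treatment labels. Replicate numbers follow the order of accession and pair nothing. Each library is titled with a mouse number of its own, and p-values measure the spread between these mice. The authors used a strain-matched genome for alignment and estimated expression with RSEM 1.2.12 and Bowtie2 2.2.0, and the submitters' processing notes list GRCm38 and mm10. The annotation release and strand setting are not given in the sources used here. The deposited values are expected counts per gene, not normalized, from joined runs for 10 of 12 libraries. A second deposited table, of normalized counts, was not used.

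Expected counts were rounded, filtered with filterByExpr and normalized by TMM, and 15853 genes were tested with edgeR 4.0.16 (quasi-likelihood F-test, robust, 4 group means, R 4.3.3), called at a Benjamini-Hochberg adjusted p under 0.05 over all genes tested. Standard errors beside log2 fold changes are approximate, from the F statistic. DESeq2 1.42.0, limma-voom 3.58.1, other normalization and filters, covariates and leaving out each library were alternatives. The fits were tested on simulated data. The limit on false calls in that test was applied to edgeR and limma-voom and not to DESeq2, which was used only as an alternative. Replicate libraries differed beyond sampling noise (chi-square per degree of freedom from 23.4 to 110), so all were counted. At these totals the spread between libraries, not counting error, limits the precision of most members. Transcript lengths, positions and exon overlaps are from GENCODE M21, and 9 members share an exon with another gene on the opposite strand. Symbols that a spreadsheet had turned into dates, 27 in all, were restored from identifiers.

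Values in every library are printed for members called in any comparison, for the 3 members with the smallest p in each direction of each comparison, and for the main neuronal pores. Partners called in any comparison are named. Results of some genes that these rules would name are not reported here and not drawn, and the counts include them. Members, lists and tests were chosen with earlier results of these data known.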

Additional observations from a re-analysis of the deposited data

How the results depend on the processing

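Of 817 fold changes of named members under the alternatives, 778 kept their direction and side of the threshold, 17 lost and 21 gained a call, and 1 turned direction: the interaction of Cacng6 was 0.05 without D2 Ctrl 1, and ranged from there to -0.75 (without D2 Ctrl 3) with 1 library left out. In D2 and for the interaction, 0 members were called in every alternative. With knock-down in B6 the count of members called was 1. It was 4 by DESeq2 (Cacna1i, Cacnb3, Scn2b and Scn3b) and 3 with the length covariate. With only the compared groups it was 2 (Scn3b and Cacna1i, without Cacnb3), beside 1.89% of all genes in that fit. Without both libraries that were high in Cacna1g (B6 KD 3 and D2 KD 1) it was 2, beside 3.42%. With the library total or the choroid plexus score as covariate it was 0. Over the fits that each left out 1 library it ranged from 0 to 3. Among all genes the same comparison gave 418 calls, and 800 with the length covariate. It gave 0 with either of the other covariates and from 0 to 790 with 1 library left out. DESeq2, run without the filter on low counts, gave 1668, or 7.5% of 22236 genes. Averaged over strains the count of members called was 3 by DESeq2, beside 1217 of all 22236 genes, and from 0 to 4 with 1 library left out. For D2 against B6 in Ctrl the count was 3, without Cacng6, with the library total as covariate or only the compared groups. The shares of all genes in these fits are not given here. With 1 library left out the count ranged from 3 to 4 in Ctrl and from 4 to 7 over both treatments. The 7 were called without B6 KD 3, beside 23.1% of all genes. The log2 fold change of Hp1bp3 in B6 was -0.57 by DESeq2 (adjusted p = 0.00893) and from -0.76 to -0.47 with 1 library left out, and was called without B6 KD 3 (adjusted p = 0.0226) or the library labelled D2 KD 3 (0.0469). The causes were not tested. The length covariate, the pair left out and the alternatives for Hp1bp3 were chosen after seeing the data. No paired analysis was possible because the replicate numbers come only from the order of accession. With 3 libraries a group, differences of the size seen for Scn2b or Cacna1i lie near the limit of what the fit calls, and Cacng6 and Cacna1s are limited by few counts.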
